A study of Mus musculus with 8 samples.

Results

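The antioxidant genes governed by the transcription factor NRF2 and the genes of glutathione supply were followed in mouse embryonic stem cells (mESCs) depleted of EFTUD2, a GTPase of the U5 snRNP, which is a core particle of the spliceosome. The 10 genes were taken by name for their known roles, with earlier results of these data already known: *Nfe2l2*, *Keap1*, *Slc7a11*, *Gclc*, *Gclm*, *Gsr*, *Txnrd1*, *Srxn1*, *Nqo1* and *Hmox1*. They are 10 of the 55385 genes in the count table, and all 10 passed the filter on low counts that left 17445 genes for testing. RNA-seq was performed on 8 libraries of R1 mESCs, a male wild-type line, grown without feeders in N2B27 medium with the 2i inhibitors and LIF. Lentivirus was applied on 2 days, and 3 days of puromycin selection followed. The nt-shRNA group (2 libraries) received a non-targeting hairpin, the shRNA1 group (3 libraries) a hairpin against the *Eftud2* 3′ UTR, and the shRNA2 group (3 libraries) a hairpin against the *Eftud2* coding sequence. Each library came from a selected, infected population and not from an isolated clone. All groups shared the line, lentiviral delivery, the selection and the medium, and per the study's methods the medium held 2-mercaptoethanol, a thiol reductant. The comparisons therefore ask how RNA levels of the antioxidant genes differed between Eftud2 KD and control cells in a reducing medium.

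NRF2, encoded by *Nfe2l2*, is a bZIP activator that KEAP1 binds and hands to a CUL3 ubiquitin ligase for degradation. Oxidants and electrophiles modify KEAP1 cysteines, NRF2 then accumulates, pairs with a small MAF protein and binds antioxidant response elements of genes for glutathione synthesis, thioredoxin recycling, quinone reduction and heme breakdown. Since NRF2 is controlled largely as a protein, its own mRNA is not a measure of its activity, and no protein was measured here.

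Total counts ran from 19569525 to 29871048 per library. Levels are CPM, TMM-scaled counts relative to library size, and a gene was called where the edgeR quasi-likelihood test, adjusted over all 17445 genes, gave an adjusted p-value under 0.05. *Eftud2* itself stood at 262.3 and 255.7 CPM in nt-shRNA, at 225.3 to 231.9 in shRNA1 and at 198.2 to 234.7 in shRNA2. All 6 KD libraries lay below both controls, and by edgeR the shRNA2 difference was called (log2 fold change -0.29, adjusted p = 0.00122), while shRNA1 gave -0.18 and missed the threshold (adjusted p = 0.0514). The shRNA1 difference was called in 7 of the 19 alternative settings, among them without shRNA2 replicate 2 (-0.18, edgeR adjusted p = 0.0383) or 3 (-0.18, 0.0206). The paper reports *Eftud2* KD by qPCR and less EFTUD2 protein on western blots with either hairpin. Its qPCR decreases were larger than those in these counts, and the reason for this gap was not tested. The pluripotent marker list, 8 of 8 genes tested, summed to 6582.6 to 6777.8 CPM in nt-shRNA, 6589.9 to 6841.6 in shRNA1 and 6753.5 to 6974.3 in shRNA2. Of its genes, 3 were called higher and 2 lower in shRNA1, and 5 higher and 2 lower in shRNA2. Of all genes tested, 13.8% were called higher and 17.1% lower in shRNA1, and 27.2% and 28.7% in shRNA2. These shares are also the background for the marker lists that follow. Summed trophectoderm markers (4 genes, 3 tested, carried mostly by *Krt7*) ran from 30.03 to 33.8, from 18.1 to 25.2 and from 6.4 to 8.54 CPM, with 1 called lower in each KD group. Mesoderm and neural markers (5 genes, carried mostly by *Nes*) ran from 68.0 to 68.7, from 47.5 to 56.7 and from 27.6 to 34.8. Of these, 2 were called lower in shRNA1, and 1 was called higher and 1 lower in shRNA2. Primitive endoderm markers (4 genes) summed to 23.1 to 23.5 CPM, 21.6 to 25.7 and 17.1 to 19.1, with 0 called in shRNA1 and 1 called lower in shRNA2. Fibroblast markers (4 genes, 3 tested) summed to 4.6 to 4.95, 6.47 to 7.34 and 6.23 to 7.57, with 1 called higher in each KD group. No marker was at 0 in all libraries. Whether these shifts bear on the antioxidant genes was not tested.

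Promoter windows were read for 7 of the 10 genes from a set of RefSeq promoters (GRCm38.p6), from 250 bases before to 50 bases after the annotated start. *Hmox1*, *Gclc* and *Gsr* had no entry in the set used. The windows were searched on both strands for the core of the antioxidant response element, TGACNNNGC, whose first letters TGAC also begin AP-1 and CRE sites, and for the core of the CCAAT-ATF element of amino acid response genes, TGATGNAA. At least 1 match to TGACNNNGC was found in 12.4% of all 32851 windows and for 13.99% of the 27025 genes with a window, and a match to TGATGNAA in 3.97% of windows and for 4.51% of genes. TGACNNNGC occurred in the windows of *Nfe2l2*, *Gclm*, *Txnrd1* (in 1 of its 3 windows) and *Srxn1*, but these letters were not in the windows of *Keap1*, *Nqo1* and *Slc7a11*. TGATGNAA occurred 2 times in *Slc7a11*, once on each strand. The matched stretches are shown 5′ to 3′ on the strand of the gene, with the match in capitals, because they are the letters through which NRF2, or ATF4 for *Slc7a11*, is known to act on genes of this class.
Nfe2l2: cagcccaccTGACTCCGCcatgccccg
Gclm: ctcccgggcGCACCGTCAactctcacg
Txnrd1: tggatttttGCTTTGTCAttctgacac
Srxn1: cagtgggcaGCTAGGTCAgagtgagac
Slc7a11, sense: tcatgtggcTGATGCAAacctggaga
Slc7a11, antisense: ctggagaatTTGCATCAtcatgcagc
The *Nfe2l2* stretch lies at chr2:75704886-75704912 on the minus strand, with the match at -240 to -232 from the start. That of *Gclm* lies at chr3:122245414-122245440 on the plus strand, with the match at -134 to -126, and that of *Txnrd1* at chr10:82859105-82859131 on the plus strand, with the match at -92 to -84. The *Srxn1* stretch lies past the start, at chr2:152105543-152105569 on the plus strand, with the match at 29 to 37. Both *Slc7a11* stretches are on the minus strand, at chr3:50443663-50443688 with the match at -66 to -59, and at chr3:50443644-50443669 with the match at -47 to -40. A match is a description of the letters and not a measured binding site.

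In control cells the recycling and detoxifying enzymes were the most abundant of the 10 genes per length. Mean nt-shRNA levels in CPM per kilobase of exon (n = 2) were 59.7 for *Gsr*, 53.8 for *Hmox1*, 43.9 for *Txnrd1*, 30.6 for *Nqo1* and 25.4 for *Nfe2l2*. These values placed *Gsr* at percentile 95.2 and *Nfe2l2* at percentile 86.9 of the genes tested. The glutathione synthesis genes were lower, at 14.1 for *Gclc* and 6.40 for *Gclm*, near 5.99 for *Keap1* and 5.20 for *Srxn1*. *Slc7a11*, the transporter that imports cystine, was far below all others at 0.0917 CPM per kilobase, percentile 3.90, with 20 to 43 counts per library over 13922 exonic bases. *Gclm*, *Keap1* and *Srxn1* are neighbours in this order that differ by about the spread between the control libraries, and the order rests on annotated exon lengths, which need not be the lengths expressed in mESCs.

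**Figure D1:**
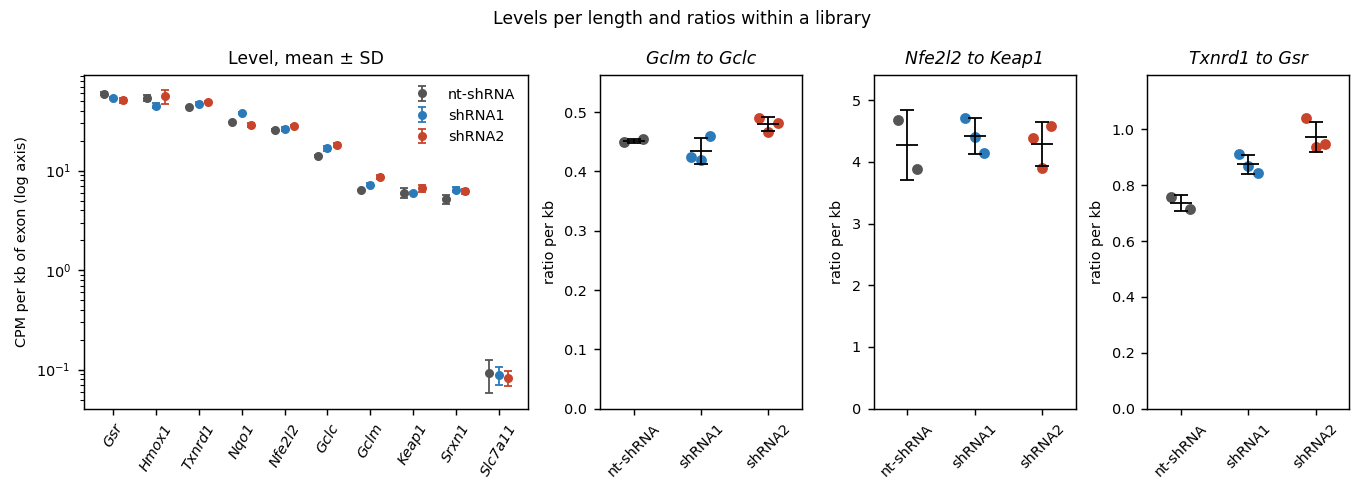
Levels of the 10 genes per kilobase of exon in the 3 groups (CPM per kilobase, log axis, mean ± SD) and the within-library ratios per kilobase of Gclm to Gclc, Nfe2l2 to Keap1 and Txnrd1 to Gsr by group, with 1 point per library and bars for the mean ± SD. Slc7a11 sits far below the other genes, and the Txnrd1 to Gsr ratios rise from 0.716 and 0.757 in nt-shRNA to between 0.938 and 1.04 in shRNA2.

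The changes among the 10 genes were small. Against nt-shRNA, 3 of the 10 rose in shRNA1 (*Nqo1*, *Gclc* and *Srxn1*) and the other 7 did not pass the test, where 30.9% of all genes tested were called, 13.8% as higher. In shRNA2, 5 rose (*Nfe2l2*, *Gclc*, *Gclm*, *Txnrd1* and *Srxn1*), *Gsr* fell and 4 did not pass, where 55.9% of all genes were called, 27.2% as higher and 28.7% as lower. With all libraries the share of the genes called was thus near the background in both comparisons. The rises in shRNA1 became 1 without shRNA1 replicate 2 or nt-shRNA replicate 1, and *Hmox1* was called lower there without shRNA1 replicate 3, shRNA2 replicate 2 or shRNA2 replicate 3. In shRNA2 the rises became 2 without shRNA2 replicate 1 or nt-shRNA replicate 1 and 3 without nt-shRNA replicate 2, which also ended the *Gsr* call. The median log2 fold change over the 10 was 0.07 in shRNA1 (all genes -0.01) and 0.16 in shRNA2 (all genes 0.00), and values ran from -0.25 to 0.31 and from -0.23 to 0.44. Not 1 of the 10 changed by more than 2-fold in the fit, beside 5.95% of all genes tested in shRNA1 and 14.8% in shRNA2, called or not. The libraries of KD and control did not overlap for 7 of the 10 genes in shRNA1 (56.8% of all genes) and for 7 in shRNA2 (71.4% of all genes). Both KD groups were compared with the same nt-shRNA libraries, so the comparisons are not independent of each other. In bulk RNA, fewer cells of a type and less RNA per cell cannot be told apart.

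**Figure D2:**
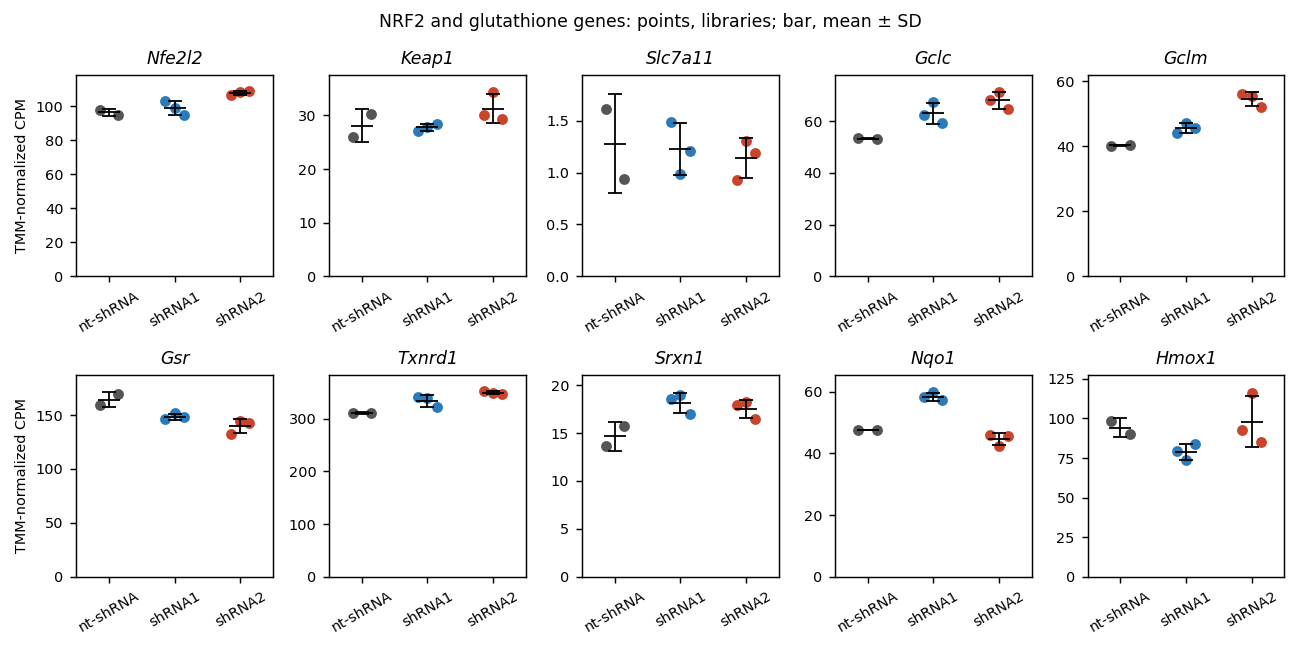
Levels of the 10 genes in each library (CPM, axis per gene), with points for libraries and bars for the mean ± SD of nt-shRNA (n = 2), shRNA1 (n = 3) and shRNA2 (n = 3). Gclm climbs from 40.2 and 40.3 in nt-shRNA to between 52.0 and 55.9 in shRNA2, and Nqo1 is highest in shRNA1, at 57.2 to 59.8.

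Of the pair that governs the response, *Nfe2l2* was slightly higher in shRNA2, and *Keap1* missed the threshold in each comparison. *Nfe2l2* (chr2:75675513-75704641, minus strand) was measured at 98.0 and 95.01 CPM in nt-shRNA, at 103.4, 98.9 and 95.1 in shRNA1 and at 106.5, 108.5 and 108.9 in shRNA2. The shRNA1 libraries overlapped the controls, whereas all 3 shRNA2 libraries lay above every other library. The shRNA2 difference was 0.16 on the log2 scale (SE 0.0609, 95% interval 0.03 to 0.29, edgeR adjusted p = 0.0295), an 11.9% rise, against 0.04 in shRNA1 (adjusted p = 0.671). The shRNA2 call was lost without shRNA2 replicate 1 (0.17, edgeR adjusted p = 0.055), shRNA2 replicate 3 (0.16, 0.0554), nt-shRNA replicate 1 (0.18, 0.0797) or nt-shRNA replicate 2 (0.14, 0.178), and also with offsets for GC content (0.11, 0.0814).

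*Keap1* (chr9:21229730-21239361, minus strand) encodes the cysteine-rich sensor. It stood at 25.9 and 30.3 CPM in nt-shRNA, at 27.1, 27.8 and 28.3 in shRNA1 and at 30.04, 34.4 and 29.3 in shRNA2. The shRNA1 libraries fell between the controls, and shRNA2 replicate 2 was the highest of all. Log2 differences from nt-shRNA were -0.02 in shRNA1 (95% interval -0.21 to 0.17, edgeR adjusted p = 0.899) and 0.15 in shRNA2 (-0.04 to 0.34, adjusted p = 0.165). With offsets for GC content, which is 58.0% in its longest annotated transcript, the shRNA2 value became 0.34 and was called (edgeR adjusted p = 0.00252). This and 3 more of the 19 alternatives called *Keap1* in shRNA2, scaling by library size alone (0.24, 0.0355) among them. With single libraries left out, the shRNA2 value ran from 0.04 to 0.27. GC offsets also called *Keap1* in shRNA2 against shRNA1 (0.23, 0.0253). An annotated gene on the opposite strand shares 10.9% of its exonic bases, and fragments there were not counted. The *Nfe2l2* to *Keap1* level ratio within a library, per kilobase, ran from 3.88 to 4.68 in nt-shRNA, from 4.15 to 4.71 in shRNA1 and from 3.9 to 4.59 in shRNA2, so the groups overlapped.

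Glutathione synthesis begins with cystine import and is limited by glutamate-cysteine ligase, a dimer of the catalytic subunit GCLC and the modifier GCLM, which raises the enzyme's affinity for glutamate. Both ligase subunits rose in shRNA2 and *Gclc* also in shRNA1, while the transporter was too low to resolve. *Gclc* (chr9:77754535-77794485, plus strand) stood at 53.5 and 53.1 CPM in nt-shRNA, at 62.4, 67.4 and 59.2 in shRNA1 and at 68.2, 71.3 and 64.6 in shRNA2. Every KD library exceeded both controls, and the KD groups overlapped each other. The increase was 18.1% in shRNA1 (log2 0.24, SE 0.0723, edgeR adjusted p = 0.0162) and 27.7% in shRNA2 (log2 0.35, SE 0.0724, edgeR adjusted p = 4.0e-04). The shRNA1 call was lost without shRNA1 replicate 2 (0.19, edgeR adjusted p = 0.102), nt-shRNA replicate 1 (0.25, 0.0909) or nt-shRNA replicate 2 (0.23, 0.0977), whereas the shRNA2 call held in all 19 alternative settings, between 0.31 and 0.44.

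*Gclm* (chr3:122245557-122270732, plus strand), whose promoter match is shown above, stood at 40.2 and 40.3 CPM in nt-shRNA, at 44.2, 47.2 and 45.5 in shRNA1 and at 55.9, 55.5 and 52.0 in shRNA2. The 3 groups did not overlap, with shRNA1 between the controls and shRNA2. This was the largest difference of the 10 genes in either KD against nt-shRNA, a 35.4% rise in shRNA2 (log2 0.44, SE 0.0706, 95% interval 0.29 to 0.58, edgeR adjusted p = 3.5e-05), called in all 19 alternatives. The shRNA1 value of 0.18 (95% interval 0.03 to 0.33, edgeR adjusted p = 0.0592) was not called, but passed in 5 of the 19 alternatives, among them without shRNA2 replicate 2 (0.18, adjusted p = 0.0473). Exonic overlap with other annotated genes covers 4.71% of *Gclm*. In a ratio chosen after the values were seen and not tested, *Gclm* to *Gclc* per kilobase was 0.45 and 0.455 in nt-shRNA, 0.42 to 0.46 in shRNA1 and 0.466 to 0.49 in shRNA2.

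*Slc7a11* (chr3:49892526-50443614, minus strand) stood at 1.61 and 0.941 CPM in nt-shRNA, at 1.49, 0.987 and 1.21 in shRNA1 and at 0.93, 1.31 and 1.19 in shRNA2. The groups overlapped throughout, and the pair of control libraries held nearly the whole range. Log2 differences of -0.04 in shRNA1 (95% interval -0.63 to 0.55, edgeR adjusted p = 0.932) and -0.15 in shRNA2 (-0.75 to 0.46, adjusted p = 0.684) leave changes of the size seen in *Gclc* or *Gclm* undetectable at this depth. The direction turned without nt-shRNA replicate 1, to 0.39 in shRNA1 and 0.28 in shRNA2, and in shRNA1 also without shRNA1 replicate 2 (0.08).

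The reductase genes *Gsr* and *Txnrd1* moved in opposite directions in shRNA2, and neither was called in shRNA1. *Gsr* encodes glutathione reductase, which returns oxidised glutathione to its reduced form with NADPH, and *Txnrd1* encodes the cytosolic thioredoxin reductase, a selenoprotein that does the same for thioredoxin. *Gsr* (chr8:33652523-33698163, plus strand) stood at 159.4 and 169.4 CPM in nt-shRNA, at 146.0, 151.6 and 148.1 in shRNA1 and at 132.5, 144.9 and 142.3 in shRNA2. The 3 groups did not overlap, controls being highest. It fell by 14.9% in shRNA2 (log2 -0.23, SE 0.0609, edgeR adjusted p = 0.00315), and the shRNA1 value of -0.15 was not called (95% interval -0.27 to -0.02, adjusted p = 0.0751). The shRNA2 call was lost without nt-shRNA replicate 2 (-0.19, edgeR adjusted p = 0.0646) and with scaling by library size alone (-0.14, 0.0549), which moves the median of all genes by 0.09 in shRNA2 and by 0.11 in shRNA1.

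*Txnrd1* (chr10:82833951-82897712, plus strand) stood at 310.5 and 312.0 CPM in nt-shRNA, at 341.8, 339.0 and 321.7 in shRNA1 and at 353.1, 349.8 and 346.4 in shRNA2. Again the groups were fully separate, but here the controls were lowest. The rise in shRNA2 was 12.4% (log2 0.17, SE 0.0573, edgeR adjusted p = 0.0178), and shRNA1 gave 0.10 (95% interval -0.02 to 0.22, adjusted p = 0.187). Without shRNA2 replicate 1 (0.16, edgeR adjusted p = 0.06), nt-shRNA replicate 1 (0.16, 0.0953) or nt-shRNA replicate 2 (0.17, 0.0815) the shRNA2 call was lost, while scaling by library size alone added a call in shRNA1 (0.22, 0.00682). The *Txnrd1* to *Gsr* ratio within a library, per kilobase, was 0.757 and 0.716 in nt-shRNA, 0.91, 0.869 and 0.844 in shRNA1 and 1.04, 0.938 and 0.946 in shRNA2. This ratio does not depend on the scaling between libraries. Its 3 groups did not overlap, but the pair was chosen after the values were seen and the ratio was not tested. The other thioredoxin reductase genes, *Txnrd2* and *Txnrd3*, were lower in shRNA2 (log2 -0.54 and -0.43, edgeR adjusted p = 0.0118 and 0.00159), unlike *Txnrd1*.

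*Srxn1* (chr2:152105516-152111376, plus strand) encodes sulfiredoxin, which repairs overoxidised peroxiredoxins. Levels were 13.6 and 15.7 CPM in nt-shRNA, 18.5, 19.0 and 17.0 in shRNA1 and 17.9, 18.3 and 16.5 in shRNA2. All KD libraries lay above both controls, and the KD groups overlapped each other. It rose by 23.7% in shRNA1 (log2 0.31, SE 0.103, edgeR adjusted p = 0.03) and by 19.6% in shRNA2 (log2 0.26, SE 0.104, edgeR adjusted p = 0.0408). Both calls were fragile: without nt-shRNA replicate 1 the edgeR values were 0.21 (adjusted p = 0.298) in shRNA1 and 0.16 (0.338) in shRNA2. The shRNA1 call was also lost without shRNA1 replicate 1 (0.29, edgeR adjusted p = 0.0794) or 2 (0.27, 0.111), and the shRNA2 call without shRNA1 replicate 2 (0.26, 0.0542) or shRNA2 replicate 1 (0.24, 0.101) or 2 (0.23, 0.0906), with DESeq2 (0.26, 0.0553) and in a fit of only the groups compared (0.26, 0.0531).

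The classical inducible markers *Nqo1* and *Hmox1* differed between the hairpins. *Nqo1* (chr8:107388225-107403206, minus strand) encodes a quinone reductase that spares cells the redox cycling of quinones. It stood at 47.6 CPM in both nt-shRNA libraries, at 58.3, 59.8 and 57.2 in shRNA1 and at 45.9, 42.3 and 45.7 in shRNA2. All shRNA1 libraries lay above, and all shRNA2 libraries below, the controls. The shRNA1 rise of 22.8% (log2 0.30, SE 0.0689, 95% interval 0.15 to 0.44, edgeR adjusted p = 0.00296) was called in all 19 alternatives. In shRNA2 the value was -0.09 (95% interval -0.24 to 0.05, edgeR adjusted p = 0.272), called only with offsets for GC content (-0.15, 0.0469) and with these offsets in a fit that also holds the replicate number.

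*Hmox1* (chr8:75093621-75100589, plus strand) encodes heme oxygenase 1, which breaks heme down to biliverdin, carbon monoxide and iron. Levels were 98.3 and 90.0 CPM in nt-shRNA, 79.6, 73.7 and 83.6 in shRNA1 and 92.9, 116.0 and 85.1 in shRNA2. All shRNA1 libraries lay below both controls, and shRNA2 replicate 2 stood above all others while shRNA2 replicate 3 lay below both controls. The shRNA1 value of -0.25 missed the threshold (SE 0.0955, 95% interval -0.45 to -0.05, edgeR adjusted p = 0.0509), and it passed in 5 of the 19 alternatives, among them without shRNA1 replicate 3 (-0.30, 0.0393), shRNA2 replicate 2 (-0.25, 0.00689) or shRNA2 replicate 3 (-0.25, 0.0205). In shRNA2 the value was 0.06 (95% interval -0.14 to 0.26, edgeR adjusted p = 0.625), which became -0.08 without shRNA2 replicate 2 and 0.00 without nt-shRNA replicate 2.

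**Figure D3:**
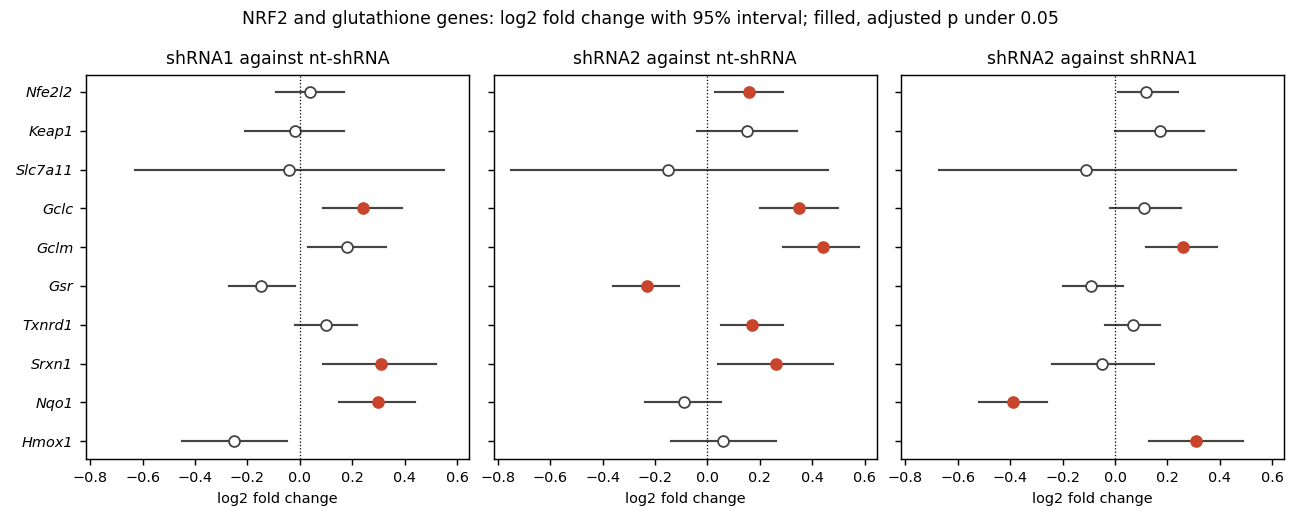
Log2 fold changes of the 10 genes in shRNA1 against nt-shRNA, shRNA2 against nt-shRNA and shRNA2 against shRNA1, with 95% intervals from edgeR, filled points being called at an adjusted p-value under 0.05. All points lie between -0.39 and 0.44, and the point estimates of Nqo1, Hmox1 and Keap1 change sides between the hairpins. For Hmox1 this is lost without shRNA2 replicate 2, where the shRNA2 value is -0.08. Neither value of Hmox1 or Keap1 against nt-shRNA was called, nor was the shRNA2 value of Nqo1 (-0.09). The Keap1 value in shRNA1 is near 0, at -0.02, and its sign turned in 8 of the 19 alternatives.

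The direct comparison of shRNA2 with shRNA1 tests whether the hairpins differed. Of the 10 genes, *Gclm* and *Hmox1* were higher in shRNA2, *Nqo1* was lower and 7 did not pass, where 35.6% of all genes were called, 16.9% as higher and 18.7% as lower. The libraries of the KD groups did not overlap for 7 of the 10, against 47.8% of all genes. *Nqo1* was 23.6% lower in shRNA2 (log2 -0.39, SE 0.0623, 95% interval -0.52 to -0.26, edgeR adjusted p = 1.2e-04), and *Gclm* 19.4% higher (0.26, SE 0.0629, adjusted p = 0.00389), and both were called in all 19 alternatives. *Hmox1* was 24.04% higher (0.31, SE 0.0865, edgeR adjusted p = 0.00898), but without shRNA2 replicate 2 the value was 0.17 and not called (adjusted p = 0.0743). Of the 7 that did not pass, *Nfe2l2* gave 0.12 (95% interval 0.01 to 0.24, edgeR adjusted p = 0.0846), with the hairpin groups separate, and was called with length offsets and the replicate number in the fit (0.14, 0.047). *Keap1* gave 0.17 (-0.00 to 0.34, edgeR adjusted p = 0.115), also without overlap, and *Slc7a11* -0.11 (-0.67 to 0.46). For *Gclc* the difference was 0.11 (95% interval -0.02 to 0.25), for *Srxn1* -0.05 (-0.24 to 0.15), for *Txnrd1* 0.07 (-0.04 to 0.17) and for *Gsr* -0.09 (-0.20 to 0.03), with each 95% interval including 0. *Eftud2* itself differed by -0.11 between the KD groups (95% interval -0.24 to 0.02, edgeR adjusted p = 0.164), a difference that was called without shRNA2 replicate 3 (-0.19, 0.0127).

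The wider antioxidant network, 102 genes in 7 lists of which 100 were tested, held more genes called lower than higher. These lists too were chosen with earlier results known. In shRNA1, 10 of the 100 rose, 39 fell and 51 did not pass, with a median of -0.15, and in shRNA2, 15 rose, 55 fell and 30 did not pass, with a median of -0.27 (all genes 0.00). Of all genes tested, 13.8% and 27.2% were called higher and 17.1% and 28.7% lower, which are also the background for each list described next. The 10 rises in shRNA1 became 6 without shRNA1 replicate 1, shRNA1 replicate 2, nt-shRNA replicate 1 or nt-shRNA replicate 2. Between the hairpins, 11 were higher and 32 lower in shRNA2, where 16.9% of all genes were called higher and 18.7% lower. Genes are named below by the smallest adjusted p-values in shRNA2, apart from *Mafk*, *Mafg*, *Btrc* and *Gss*, which are given for comparison. The shRNA1 value is given where it was called, and for *Gss* and *Trp53* although it was not.

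Among partners and regulators of NRF2 (13 genes), 3 rose and 4 fell in shRNA1 and 5 rose and 6 fell in shRNA2, with medians of -0.01 and 0.02, beside 13.8% of all genes higher and 17.1% lower in shRNA1 and 27.2% and 28.7% in shRNA2. The 3 rises in shRNA1 became 1 without shRNA1 replicate 1, shRNA1 replicate 2 or nt-shRNA replicate 1, and 0 without nt-shRNA replicate 2. *Maff*, which encodes a small MAF protein that pairs with NRF2, stood at 16.5 and 17.9 CPM in nt-shRNA, at 8.21 to 9.98 in shRNA1 and at 4.74 to 6.38 in shRNA2. It fell by 0.92 on the log2 scale in shRNA1 (edgeR adjusted p = 2.3e-05) and fell by 1.68 in shRNA2 (5.9e-09), with the 3 groups fully separate. Of the other small MAF genes, *Mafk* was also lower (log2 -0.58 in shRNA1 and -0.86 in shRNA2, edgeR adjusted p = 0.0013 and 8.8e-06). *Mafg* went the other way and rose by 0.34 in shRNA2 (edgeR adjusted p = 5.7e-04). *Nfe2l1*, the NRF2 relative that drives proteasome genes, fell by 0.37 and by 0.54 (edgeR adjusted p = 2.9e-04 and 1.4e-06). *Gsk3b*, a kinase that marks NRF2 for degradation apart from KEAP1, rose by 0.24 in shRNA1 and 0.34 in shRNA2 (edgeR adjusted p = 0.00815 and 1.7e-04), and its shRNA1 call was lost without shRNA1 replicate 2 (0.19, 0.0601), nt-shRNA replicate 1 (0.25, 0.0576) or nt-shRNA replicate 2 (0.23, 0.0722). *Fbxw11*, an F-box protein of the ligase that reads that mark, rose by 0.37 in shRNA2 (adjusted p = 6.2e-05). *Btrc*, the other F-box gene of the list, was lower in shRNA2 (log2 -0.40, edgeR adjusted p = 1.1e-04).

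Glutathione synthesis and turnover outside the ligase (13 genes) had the lowest medians of the 7 lists, -0.40 in shRNA1 and -0.63 in shRNA2. There 6 fell and 7 did not pass in shRNA1, and 2 rose, 8 fell and 3 did not pass in shRNA2. The list holds genes of breakdown and export beside synthesis. *Gss*, which encodes glutathione synthetase, was not called, at -0.19 in shRNA1 (edgeR adjusted p = 0.0841) and -0.06 in shRNA2 (0.55). *Ggt1*, a γ-glutamyl transferase that splits extracellular glutathione, stood at 40.4 and 37.8 CPM in nt-shRNA, at 25.4 to 29.7 in shRNA1 and at 15.1 to 19.2 in shRNA2, and fell by 0.52 and 1.23 (edgeR adjusted p = 5.3e-04 and 8.5e-09). *Abcc1*, an exporter of glutathione and its conjugates, went from 178.2 and 171.0 CPM to between 103.9 and 119.3 in shRNA1 and between 75.4 and 85.0 in shRNA2, and fell by 0.67 and 1.12 (edgeR adjusted p = 9.7e-07 and 3.3e-10). In shRNA2 the genes that rose were *Lap3*, a peptidase able to cleave cysteinyl-glycine (0.49, edgeR adjusted p = 5.8e-06), and *Ggt5* (0.86, 0.00993), the latter from 1.12 and 1.29 CPM to between 1.72 and 2.89. The *Ggt5* call was lost without shRNA2 replicate 2 (0.61, edgeR adjusted p = 0.0652) or nt-shRNA replicate 1 (0.77, 0.0735).

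Enzymes that spend glutathione (25 genes, 24 tested) were divided, with 5 higher and 11 lower in shRNA1 and 4 higher and 12 lower in shRNA2, at medians of -0.18 and -0.31. *Gpx4*, the selenoperoxidase that clears lipid hydroperoxides and guards against ferroptosis, stood at 460.7 and 432.3 CPM in nt-shRNA, at 303.8 to 327.7 in shRNA1 and at 199.6 to 244.2 in shRNA2. It fell by 29.98% and by 50.7% (log2 -0.51 and -1.02, edgeR adjusted p = 3.2e-05 and 1.5e-09). *Gstm1*, a glutathione transferase with close paralogs, so that fragments aligning to several of them were not counted, fell by 0.83 and 1.66 on the log2 scale (edgeR adjusted p = 2.0e-06 and 1.1e-10). Against them, *Gsto1*, an omega-class transferase, went from 30.7 and 29.6 CPM to between 50.9 and 65.7 in shRNA1 and between 77.6 and 118.0 in shRNA2, a rise of 0.91 and 1.77 (edgeR adjusted p = 6.7e-05 and 4.7e-09). *Glrx2*, a glutaredoxin found in mitochondria, rose by 0.88 and 1.12 (edgeR adjusted p = 3.9e-07 and 2.4e-09).

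In the thioredoxin and peroxiredoxin list (15 genes), 1 rose and 5 fell in shRNA1 and 1 rose and 10 fell in shRNA2, with medians of -0.08 and -0.21. Without nt-shRNA replicate 1 the genes called lower were 3 in shRNA1 and 4 in shRNA2, and without shRNA1 replicate 2 they were 3 in shRNA1, while the single rise in shRNA1 was lost without shRNA1 replicate 1, shRNA1 replicate 2 or nt-shRNA replicate 1. In shRNA2, 2 rose without shRNA1 replicate 3 or shRNA2 replicate 3. *Txnip*, which binds and inhibits thioredoxin, stood at 1454.8 and 1405.2 CPM in nt-shRNA, at 1447.2 to 1613.7 in shRNA1 and at 766.3 to 992.6 in shRNA2. Only the shRNA2 libraries were apart from the controls (log2 -0.70, edgeR adjusted p = 8.5e-07). *Prdx4*, the peroxiredoxin of the endoplasmic reticulum, fell by 0.31 and 0.40 (edgeR adjusted p = 0.0012 and 3.4e-05). *Msrb2*, a methionine sulfoxide reductase, rose by 0.56 in shRNA2 (edgeR adjusted p = 0.0148), a call lost without shRNA2 replicate 2 (0.38, 0.0878) or nt-shRNA replicate 1 (0.37, 0.19).

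NADPH supply, iron storage and other metabolic genes linked to NRF2 (19 genes) gave 1 higher and 8 lower in shRNA1 and 1 higher and 10 lower in shRNA2, with medians of -0.17 and -0.14. Without nt-shRNA replicate 1 only 3 were lower in shRNA1, and 2 rose in shRNA1 without shRNA1 replicate 3 and in shRNA2 without shRNA2 replicate 3. *Me1*, the cytosolic malic enzyme that makes NADPH, stood at 115.4 and 118.4 CPM in nt-shRNA, at 73.5 to 80.1 in shRNA1 and at 52.9 to 60.8 in shRNA2, and fell by 0.60 and 1.03 (edgeR adjusted p = 3.2e-06 and 6.9e-10). *Tkt*, a transketolase of the pentose phosphate pathway, fell by 0.56 and 0.86 (edgeR adjusted p = 4.3e-06 and 3.3e-09). *Ephx1*, a microsomal epoxide hydrolase, rose by 0.32 and 0.36 (edgeR adjusted p = 0.00502 and 8.3e-04).

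For removal of superoxide and peroxide (7 genes, 6 tested), 3 fell in shRNA1 and 3 in shRNA2, where 1 also rose, but 1 fell in shRNA1 without shRNA1 replicate 2 or nt-shRNA replicate 2. *Sod1*, the cytosolic superoxide dismutase, fell by 0.40 and 0.43 (edgeR adjusted p = 1.1e-04 and 1.3e-05). *Cat*, encoding catalase, fell by 0.16 in shRNA1 and 0.35 in shRNA2 (edgeR adjusted p = 0.048 and 7.3e-05). The shRNA1 call of *Cat* was lost in 14 of the 19 alternatives: without shRNA1 replicate 2 (-0.14, edgeR adjusted p = 0.178), shRNA1 replicate 3 (-0.16, 0.0581), shRNA2 replicate 1 (-0.16, 0.0676), nt-shRNA replicate 1 (-0.18, 0.147) or nt-shRNA replicate 2 (-0.14, 0.228), and in 9 settings that kept all libraries, among them DESeq2 (-0.16, 0.0624) and library size alone (-0.05, 0.58). *Pon2*, a paraoxonase of intracellular membranes, rose by 0.74 in shRNA2 (edgeR adjusted p = 6.4e-05).

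Other transcription factors known to act on some of the 10 genes (10 factors) gave 2 lower in shRNA1, and 1 higher and 6 lower in shRNA2, with medians of -0.10 and -0.33. In shRNA2, 2 rose without shRNA1 replicate 3 or shRNA2 replicate 3. *Atf4*, a main effector of the integrated stress response and an activator of *Slc7a11*, stood at 354.6 and 307.9 CPM in nt-shRNA, at 192.5 to 229.9 in shRNA1 and at 210.2 to 262.3 in shRNA2. Every KD library lay below both controls, and it fell by 0.65 in shRNA1 and 0.50 in shRNA2 (edgeR adjusted p = 1.6e-05 and 6.7e-05). *Ddit3*, its partner CHOP in that response, fell by 1.56 and 1.78 (edgeR adjusted p = 2.5e-06 and 9.6e-08), with nt-shRNA libraries themselves at 93.7 and 62.5 CPM. *Trp53*, which encodes p53, a known repressor of *Slc7a11*, stood at 168.7 and 188.1 CPM in nt-shRNA, at 188.9 to 198.4 in shRNA1 and above all of these, at up to 312.1, in shRNA2. It rose by 0.62 in shRNA2 (edgeR adjusted p = 2.6e-06) against 0.11 in shRNA1 (adjusted p = 0.328). The shRNA1 value was called in 3 of the 19 alternatives, among them library size alone (0.22, 0.041), and ran from 0.03 to 0.19 with single libraries left out.

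**Figure D4:**
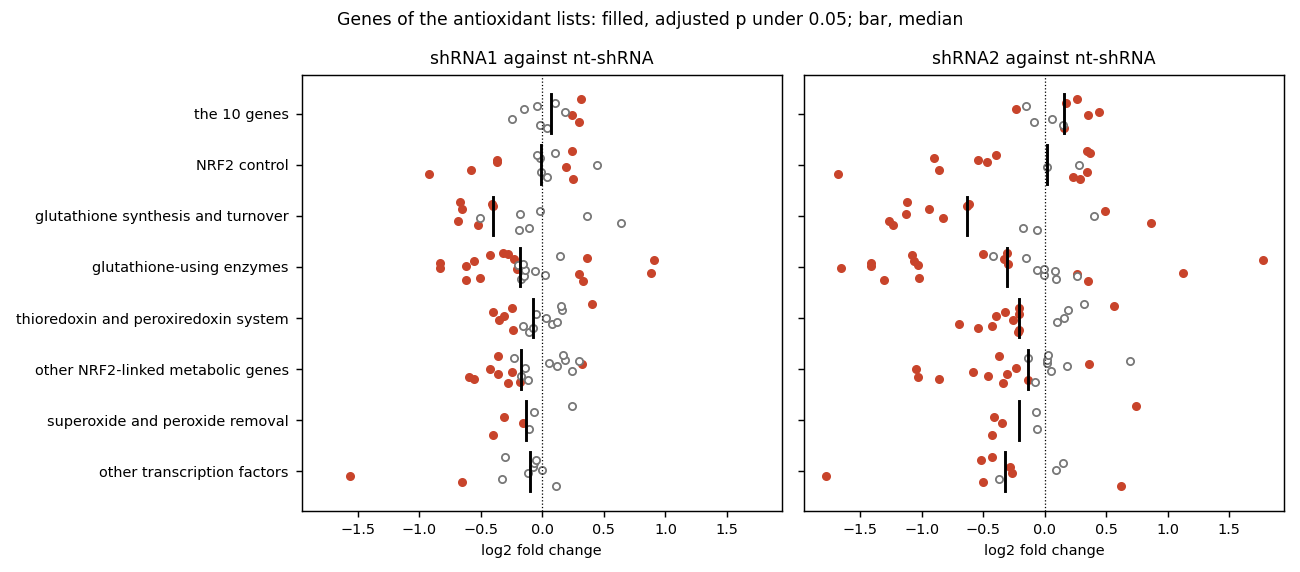
Log2 fold changes against nt-shRNA of the tested genes of the 7 wider lists beside the 10 NRF2 and glutathione genes, in shRNA1 and shRNA2, with 1 point per gene, filled where called by edgeR, and a bar at each list's median. The median of the glutathione synthesis and turnover list, which leaves out Gclc and Gclm, is the lowest, at -0.40 and -0.63. That of the 10 genes lies above 0, at 0.07 and 0.16.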

How the data were processed

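RNA was sequenced from 8 R1 mESC libraries as poly(A) paired-end reads. The authors aligned reads with STAR and counted fragments with featureCounts 1.6.2 (GENCODE M24, GRCm38), and the deposited values are raw counts per gene for 55385 genes, with exonic length. The counting used no strand and took no fragment that aligned to several places or to several genes. Gene names came from GENCODE M21 for 55144 genes. The columns were mapped to samples by their names, and 0 per-sample columns were left unused.

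Counts were fitted in R 4.3.3 with edgeR 4.0.16 (limma 3.58.1): filterByExpr (minimum count 10, 17445 genes), TMM, glmQLFit and glmQLFTest over all 8 libraries, each group having its own coefficient and no block being used, with Benjamini-Hochberg adjustment over all genes tested. The common biological coefficient of variation was 0.064. Standard errors came from the F statistic. Nothing in the labels ties replicates to shared days, and their p-values measure the spread between these cultures. A floor of 3 counts was 0.1004 to 0.1533 CPM per library, for counting error only. The code was tested on simulated data.

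The genes and the lists were chosen with earlier results of these data known. All 10 genes are described, called or not, with *Eftud2*, *Trp53* and *Atf4*, and from each wider list up to 2 genes called higher and 2 called lower in shRNA2, by smallest adjusted p-value. *Mafk*, *Mafg*, *Btrc*, *Gss*, *Txnrd2* and *Txnrd3* were added outside this rule, for comparison with the named genes. *Ddit3* has more than 1 identifier and the longer gene was used. Alternatives (19 settings) were DESeq2 1.42.0, its size factors, scaling by library size alone, omission of the filter, a filter of 10 counts required of each library, a fit of only the groups compared, a replicate block, GC content or gene length offsets with and without the block, and leaving out each library. Tables and figures used pandas 2.3.3 and matplotlib 3.10.9 under Python 3.11.15.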

Additional observations from a re-analysis of the deposited data

Results flagged for a closer look

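For 3 of the 10 genes the effects of the hairpins differed by the direct edgeR test of shRNA2 against shRNA1, which called 35.6% of all genes tested, so the count is no higher than the background. The difference was -0.39 on the log2 scale for *Nqo1* (edgeR adjusted p = 1.2e-04), with all 3 shRNA2 libraries below all 3 shRNA1 libraries. For *Hmox1* it was 0.31 (edgeR adjusted p = 0.00898), again without overlap, at 85.1 to 116.0 CPM in shRNA2 against 73.7 to 83.6 in shRNA1, but without shRNA2 replicate 2 it was 0.17 and not called (edgeR adjusted p = 0.0743). For *Gclm* it was 0.26 (edgeR adjusted p = 0.00389), at 52.0 to 55.9 against 44.2 to 47.2 CPM. No group had the 4 libraries needed to look for a single library far from the others.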

How the results depend on the processing

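Same-numbered libraries of different groups deviated together with correlations between -0.03 and 0.07, and 4 of 8 libraries matched best their own number. These values gave no sign that equal numbers paired the samples, but do not show that they were unpaired. For qPCR, the paper compared each KD replicate with its matching nt-shRNA replicate. A replicate block gave 2694 genes higher and 3324 lower in shRNA1 and 4898 and 5136 in shRNA2, against 2407, 2981, 4748 and 5010 without it, and among the 10 genes it added *Gclm* in shRNA1 (0.20, edgeR adjusted p = 0.0397). With the block *Eftud2* was called in shRNA1 (-0.21, edgeR adjusted p = 0.0206) and *Cat* there was not (-0.15, 0.058). With library size alone, 4101 genes were higher and 1713 lower in shRNA1, 5 of the 10 genes were higher there and 0 lower in shRNA2, and of the wider lists 19 genes were higher in shRNA1 and 23 in shRNA2. Without a filter, 1 of the 10 was lower in shRNA1 (*Hmox1*) and 2 higher in shRNA2, the calls of *Nfe2l2*, *Txnrd1* and *Srxn1* being lost there and that of *Srxn1* in shRNA1. With only the groups compared, 1 was lower in shRNA1. With GC offsets, with or without the block, 2 were lower in shRNA2. Some values close to 0 changed sign in shRNA1, and the cause was not tested: *Keap1* was 0.09 with library size alone, 0.01 with at least 10 counts, 0.00 with only the groups compared or the block, 0.11 with GC offsets, 0.16 with these and the block and 0.02 with length offsets and the block, *Slc7a11* was 0.07 with library size alone, and *Nfe2l2* 0.00 with GC offsets. Leaving out single libraries gave 1239 to 2632 genes higher and 1709 to 3294 lower in shRNA1, 1 to 4 of the 10 genes higher and 0 to 1 lower in shRNA1, 2 to 5 higher and 0 to 1 lower in shRNA2, 1 to 2 higher in shRNA2 against shRNA1, and 6 to 12 genes of the wider lists higher in shRNA1. Values ran from -0.38 to 0.39 (shRNA1), -0.49 to 0.28 (shRNA2) and -0.22 to 0.04 (direct) for *Slc7a11*, from -0.13 to 0.10 for *Keap1* in shRNA1 and from -0.08 to 0.15 for *Hmox1* in shRNA2. The nt-shRNA group has only 2 libraries, so without either the lone control is assumed to vary like the other groups. Differences of about 10% in single genes lie near the limit of this design, and for *Slc7a11* the counts limit it further.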
